A study of Mus musculus with 18 samples.

Results

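Expression of 10 apoptosis genes that p53 is known to activate was followed through 18 mouse mammary gland libraries: Bax, Bbc3, Pmaip1, Fas, Tnfrsf10b, Eda2r, Aen, Trp53inp1, Apaf1 and Perp. They were chosen by name, as p53 targets of apoptosis and death receptor genes, out of 23337 symbols in the count table. All 10 were found, and all 10 passed the filter on low counts, which left 15482 genes to test.

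RNA was sequenced from whole mammary gland with lymph nodes excluded, from mice on a mixed C57BL/6Jx129 background that were WT (wild type) or Cip2a-/-. The CIP2A protein inhibits the phosphatase PP2A. Each genotype had 3 untreated libraries, 3 libraries taken 2 weeks after the last dose of the carcinogen DMBA, and 3 taken at the endpoint, when a mouse was killed because of a DMBA-induced tumour in any tissue. The endpoint glands were themselves free of tumour. Treated mice received 1 mg DMBA in oil by gavage once a week, 6 doses in all, the first at 12 to 14 weeks of age. The cell type in which Cip2a was lost, the age of the untreated mice, the time from last dose to endpoint and an oil-only group are stated nowhere in the labels, so DMBA and gavage in oil cannot be told apart. The libraries are numbered, but the labels do not say that each came from a separate animal, and the p-values measure the spread between these libraries.

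The p53 protein is a transcription factor that is stabilised when DNA is damaged, and DMBA is converted by cytochrome P450 enzymes into metabolites that bind DNA. Among its targets are genes of both death pathways. Bax, Bbc3 (PUMA) and Pmaip1 (Noxa) belong to the Bcl-2 family and act at the mitochondrial outer membrane, and Apaf1 forms the apoptosome that activates caspase-9 once cytochrome c has been released. Fas, Tnfrsf10b (the mouse TRAIL receptor) and Eda2r (the receptor for ectodysplasin A2) are members of the TNF receptor superfamily at the cell surface. Aen is an apoptosis-enhancing nuclease, Trp53inp1 is a stress protein that acts with p53 and in autophagy, and Perp is a membrane protein of desmosomes that is also a target of p63 in stratified epithelia.

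Promoter windows of 300 bases, from 250 before to 50 after a RefSeq start (GRCm38.p6, the build also called mm10), were held for 6 of the 10 genes: Bax, Bbc3, Fas, Eda2r, Aen and Apaf1. They were searched for the 10-base consensus half-site of p53, which reads the same on both strands. The 6 genes had 9 windows in all, of which 3, in Bax and Aen, held a half-site, against 8.36% of 32851 windows in the whole table, and 0.0731% of windows held 2 half-sites at most 13 bases apart. The windows of Bax (chr7:45466849-45467148, minus strand) and Aen (chr7:78895677-78895976, plus strand) are shown for the half-site, in capitals, and that of Eda2r (chrX:97377160-97377459, minus strand) because Eda2r had the largest 2-week difference of the 10 and no match in this window.
Bax: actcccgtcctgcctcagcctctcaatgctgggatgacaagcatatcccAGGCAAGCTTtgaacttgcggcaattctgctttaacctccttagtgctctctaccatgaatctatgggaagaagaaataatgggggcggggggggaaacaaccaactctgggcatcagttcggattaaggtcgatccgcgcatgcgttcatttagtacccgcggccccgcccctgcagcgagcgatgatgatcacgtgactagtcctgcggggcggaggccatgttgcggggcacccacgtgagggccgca
Aen: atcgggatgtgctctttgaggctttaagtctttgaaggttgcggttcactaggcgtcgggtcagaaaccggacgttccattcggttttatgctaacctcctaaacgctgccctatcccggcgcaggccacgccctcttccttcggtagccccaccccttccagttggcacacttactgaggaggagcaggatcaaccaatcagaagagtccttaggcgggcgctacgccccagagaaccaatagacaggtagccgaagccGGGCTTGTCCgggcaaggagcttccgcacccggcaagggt
Eda2r: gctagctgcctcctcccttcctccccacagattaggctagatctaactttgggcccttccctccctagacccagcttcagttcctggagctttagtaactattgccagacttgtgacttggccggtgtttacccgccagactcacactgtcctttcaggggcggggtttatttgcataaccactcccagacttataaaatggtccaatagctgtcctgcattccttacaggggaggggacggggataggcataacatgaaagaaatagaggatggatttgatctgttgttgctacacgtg
Counted from the start of transcription, the Bax half-site begins at position -201 and that of Aen at position 10. A second Aen window, with its start further downstream (chr7:78895808-78896107), holds the same half-site. The matches describe these letters only, and sites in introns or further away lie outside the windows.

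Total counts per library ran from 16121743 to 24586404. Cip2a, listed under the older symbol C330027C09Rik, had 86, 203 and 202 reads in the 3 WT groups (untreated, 2 weeks, endpoint) and 2, 0 and 0 reads in the Cip2a-/- groups, as labelled. Markers of mammary epithelium were present in all libraries, but WT endpoint library 1 had only 29.3 CPM (the depth-scaled count after TMM scaling) summed over 8 luminal and general epithelial markers, with Epcam at 4.37 CPM and the basal keratin gene Krt5 at 2.28 CPM. In the same library 4 brown fat markers summed to 8139 CPM. The 7 skeletal muscle markers summed from 16.3 to 58547 CPM over the 18 libraries, with the most in Cip2a-/- 2-week library 1, and 6 B cell markers from 1.10 to 1609 CPM. B cell markers were highest of their group in WT endpoint library 1, in Cip2a-/- untreated library 3 (608 CPM, with 300.1 CPM of epidermis markers) and in Cip2a-/- 2-week library 2 (202 CPM), and counts are also given without these 3 libraries. Skeletal muscle markers were highest of their group in Cip2a-/- 2-week library 1 and in WT untreated library 1 (30653 CPM, with 440 CPM of B cell markers), and a further count leaves out all 5. The labels also hold a number for each library whose meaning they do not give. It was higher in the 6 libraries of 2-week glands than in the other 12, so it cannot be told apart from that condition.

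In untreated glands the 10 genes differed widely in level. Per kilobase of exon, Bax had the highest mean level at 45.2 ± 8.94 CPM (SD, n = 6, both genotypes), followed by Fas at 15.5 ± 1.80, Perp at 10.2 ± 6.42 and Bbc3 at 9.85 ± 1.66. Below these came Aen at 6.21, Tnfrsf10b at 5.42, Trp53inp1 at 4.74, Apaf1 at 1.72, Pmaip1 at 1.20 and Eda2r at 0.528 CPM per kilobase. Neighbours in this order overlapped between libraries, except Bax with Fas and Trp53inp1 with Apaf1. At 2 weeks Bax was again first, at 98.7 ± 32.8 CPM per kilobase, while Eda2r moved from rank 10 to rank 8 with 4.86 ± 4.73, overlapping Tnfrsf10b above it and Apaf1 below it. At the endpoint Eda2r was again last, at 0.690 ± 0.589 CPM per kilobase.

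At 2 weeks after DMBA, 9 of the 10 genes had a higher fitted level than in untreated glands when the genotypes were averaged, and their log2 fold changes had a median of 0.76. The 15482 genes tested had a median of -0.0005, and 49.9% were positive. In 3 genes, Tnfrsf10b, Eda2r and Trp53inp1, every one of the 6 treated libraries lay above every one of the 6 untreated libraries, which held for 0.711% of all genes in that direction. None of the 10 passed an adjusted p of 0.05 in edgeR's quasi-likelihood test, and 0.0258% of all genes did so in either direction. At an unadjusted p under 0.05, 7 of the 10 were higher, against 3.4% of all genes: Bax, Bbc3, Apaf1, Tnfrsf10b, Eda2r, Aen and Trp53inp1. DESeq2 called 5 of the 10, Bax, Tnfrsf10b, Eda2r, Aen and Trp53inp1, against 0.499% of all genes, and limma-voom called 0. Without the 3 libraries named above edgeR again called 0, and 5 of the 10 genes were without overlap, as 1.16% of all genes then were. Without all 5 these counts were 0 and 5, against 1.97% of all genes without overlap.

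Cell type markers differed in the same comparison, with 0 of them called. All 6 B cell markers had lower fitted levels at 2 weeks, with a median log2 fold change of -3.55 and a summed level of 1.10 to 202 CPM against 9.08 to 608 CPM untreated. All 6 T cell markers (median -1.45), all 4 neutrophil markers (-1.02), all 4 brown fat markers (-1.11) and all 5 epidermis markers tested (-1.55) were also below 0. All 5 fibroblast markers were above 0 (0.37). The part of these markers in the values of the 10 genes was not tested.

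**Figure D1:**
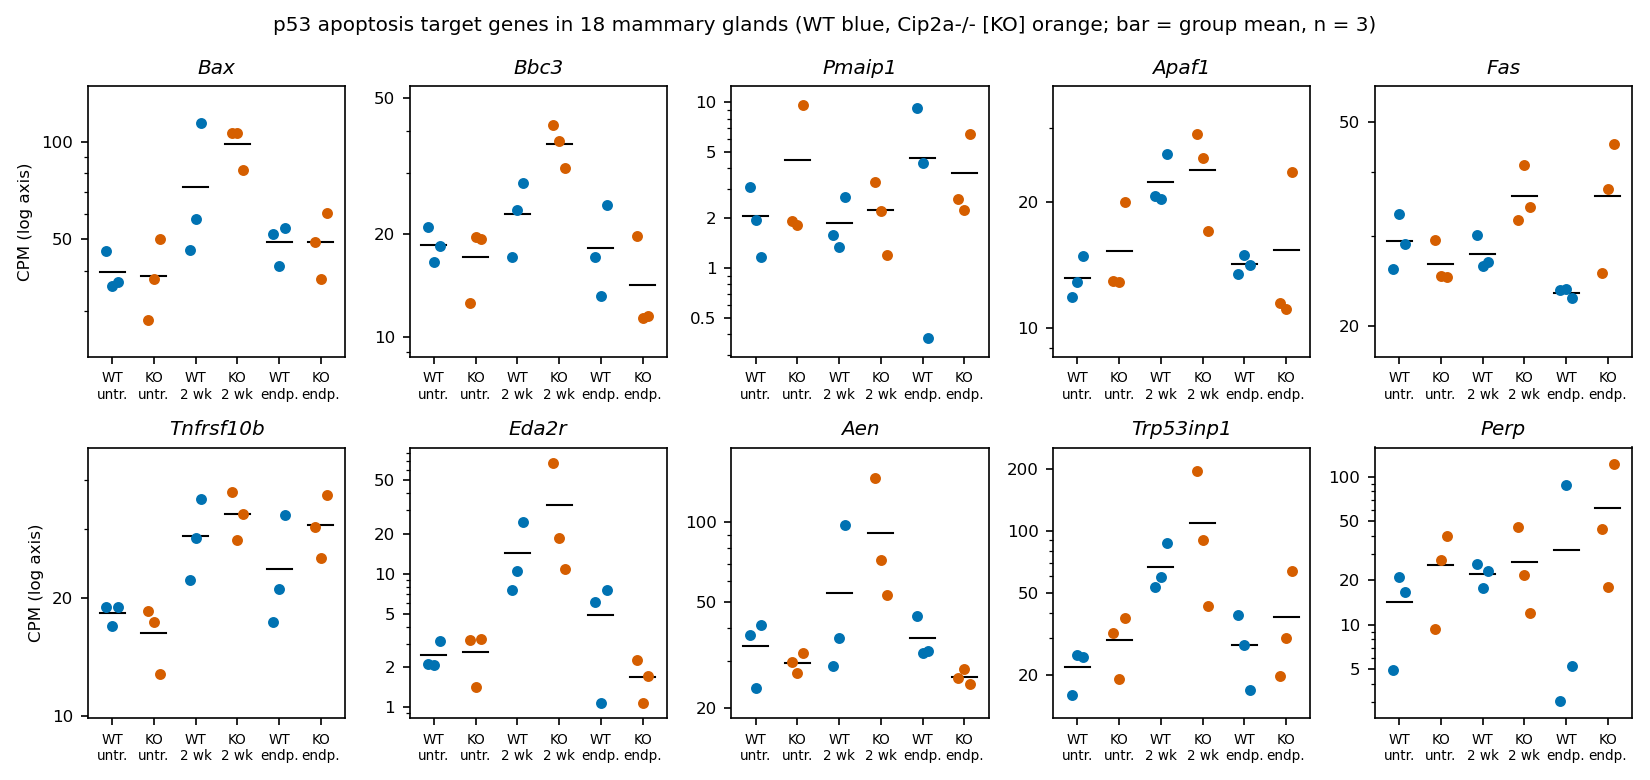
CPM (log axis) of each of the 10 genes in 18 libraries, 1 point per library, with WT in blue and Cip2a-/- (KO) in orange; the bar is the mean of 3 libraries. Tnfrsf10b, Eda2r and Trp53inp1 show every 2-week point above every untreated point, and the other genes do not.

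Among the Bcl-2 family genes, Bax (chromosome 7, 45461695 to 45466903), whose protein forms the pores of the outer mitochondrial membrane, had the largest 2-week difference. WT glands had 46.0, 36.0 and 36.9 CPM of Bax untreated, 46.4, 57.8 and 114 CPM 2 weeks after DMBA and 52.0, 41.4 and 54.2 CPM at the endpoint. In Cip2a-/- glands the levels were 28.3, 37.7 and 50.04 CPM untreated, 107, 107 and 81.8 CPM at 2 weeks, and 49.2, 37.7 and 60.5 CPM in endpoint glands. In all, 5 of the 6 treated libraries at 2 weeks exceeded all untreated ones, and WT 2-week library 1 lay within the untreated range. The averaged log2 fold change at 2 weeks was 1.11 ± 0.21 (SE; adjusted p = 0.0882, edgeR), which passed the threshold without WT 2-week library 1 and in DESeq2 (adjusted p = 0.000670). In the GENCODE M21 annotation Bax shares 192 exon bases with Gm45808 on the same strand, so its count may include or lose reads of that model.

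Bbc3 (chromosome 7, 16308398 to 16318334) encodes a BH3-only protein that neutralises the survival members of the family. Its level in WT glands was 20.9, 16.5 and 18.4 CPM untreated, 17.0, 23.4 and 28.1 CPM 2 weeks after DMBA and 17.0, 13.2 and 24.2 CPM at the endpoint. In Cip2a-/- glands it was 12.5, 19.6 and 19.3 CPM untreated, 41.6, 37.3 and 31.2 CPM 2 weeks after DMBA and 19.7, 11.3 and 11.5 CPM at the endpoint. The 2-week libraries of Cip2a-/- glands stood above all other libraries of the series, whereas those of WT glands overlapped the untreated ones. The averaged log2 fold change was 0.70 ± 0.20 (adjusted p = 0.452). Apaf1 (chromosome 10, 90989311 to 91082743) had 11.9, 12.9 and 14.8 CPM in untreated WT glands, 20.7, 20.4 and 26.0 CPM 2 weeks after DMBA and 13.5, 14.98 and 14.2 CPM at the endpoint. The corresponding Cip2a-/- values were 12.97, 12.93 and 20.04 CPM, then 29.1, 25.5 and 17.0 CPM, then 11.5, 11.1 and 23.5 CPM. At 2 weeks the WT libraries lay above the untreated WT ones, while in Cip2a-/- glands 2-week library 3 lay below untreated library 3, and the endpoint libraries overlapped the untreated ones in both genotypes. The averaged log2 fold change of Apaf1 was 0.70 ± 0.20 (adjusted p = 0.486).

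Pmaip1 (chromosome 18, 66458604 to 66465558), the other BH3-only gene, did not share this pattern. It was at 1.16 to 9.67 CPM in untreated glands, with a median of 1.93, at 1.21 to 3.29 CPM at 2 weeks, with a median of 1.90, and at 0.379 to 9.25 CPM at the endpoint, with a median of 3.45. The 3 conditions overlapped throughout. The log2 fold change at 2 weeks was -0.57 ± 0.62 (adjusted p = 0.904), and without Cip2a-/- untreated library 3, which held the 9.67 CPM, it was 0.06.

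Of the 3 receptor genes, Eda2r (chromosome X, 97333837 to 97377234) had the largest difference of the 10 genes. Untreated WT glands had 2.13, 2.07 and 3.16 CPM, WT glands at 2 weeks 7.56, 10.4 and 24.6 CPM, and WT endpoint glands 6.15, 1.08 and 7.58 CPM. The Cip2a-/- values were 3.17, 1.43 and 3.24 CPM untreated, 67.9, 18.6 and 10.9 CPM 2 weeks after DMBA and 2.26, 1.07 and 1.72 CPM at the endpoint. Every treated library at 2 weeks exceeded every untreated one, and the treated libraries differed among themselves by more than the untreated ones did. The means were 2.53 ± 0.761 CPM untreated and 23.3 ± 22.7 CPM at 2 weeks (SD, n = 6 each), and the log2 fold change was 3.08 ± 0.54 (adjusted p = 0.0740; DESeq2 adjusted p = 3.13e-06). Without Cip2a-/- 2-week library 1, the highest, the log2 fold change was 2.51.

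Tnfrsf10b (chromosome 14, 69767472 to 69784411) was the second receptor gene in which treated and untreated glands separated at 2 weeks. In WT glands it was at 19.0, 16.9 and 18.9 CPM untreated, 22.1, 28.4 and 35.7 CPM 2 weeks after DMBA and 17.4, 21.1 and 32.5 CPM at the endpoint. In Cip2a-/- glands it was at 18.5, 17.3 and 12.8 CPM untreated, 37.1, 28.02 and 32.6 CPM 2 weeks after DMBA and 30.3, 25.3 and 36.5 CPM at the endpoint. The 2-week and untreated libraries did not overlap in either genotype, and the averaged log2 fold change was 0.83 ± 0.17 (adjusted p = 0.139; DESeq2 adjusted p = 0.00422). Fas (chromosome 19, 34290647 to 34327775) was the receptor with the smallest difference. It had 25.8, 33.1 and 28.9 CPM in untreated WT glands, 30.05, 26.2 and 26.7 CPM 2 weeks after DMBA and 23.5, 23.6 and 22.6 CPM at the endpoint. Its Cip2a-/- levels were 29.5, 25.03 and 24.9 CPM untreated, 32.2, 41.2 and 34.1 CPM 2 weeks after DMBA and 25.4, 37.1 and 45.2 CPM at the endpoint. The untreated and 2-week WT libraries overlapped, and the WT endpoint libraries lay below all of them. The Cip2a-/- libraries at 2 weeks were above the untreated ones. The averaged log2 fold change of Fas was 0.18 ± 0.13 (adjusted p = 0.823).

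The nuclease gene Aen (chromosome 7, 78895927 to 78911209) and Trp53inp1 (chromosome 4, 11156441 to 11174379) followed Eda2r in size. Aen was at 37.7, 23.8 and 41.1 CPM in untreated WT glands, 28.7, 36.8 and 97.8 CPM 2 weeks after DMBA and 44.4, 32.4 and 32.9 CPM at the endpoint. Its Cip2a-/- values were 29.8, 27.0 and 32.1 CPM untreated, 147, 72.4 and 53.4 CPM 2 weeks after DMBA and 25.9, 27.99 and 24.7 CPM at the endpoint. In WT glands 1 library of 3 carried the 2-week difference, since the log2 fold change of 0.67 ± 0.41 became -0.06 without WT 2-week library 3. In Cip2a-/- glands all 3 treated libraries were above all 3 untreated ones. Averaged over genotypes, the log2 fold change of Aen was 1.14 ± 0.30 (adjusted p = 0.396; DESeq2 adjusted p = 0.0403). Trp53inp1 had 15.9, 24.9 and 24.4 CPM in untreated WT glands, 53.3, 59.8 and 87.1 CPM 2 weeks after DMBA and 39.0, 27.7 and 16.8 CPM at the endpoint. The Cip2a-/- glands had 31.8, 19.0 and 37.8 CPM untreated, 196, 90.4 and 43.0 CPM 2 weeks after DMBA and 19.6, 30.2 and 64.1 CPM at the endpoint. No untreated library reached any 2-week library, and the averaged log2 fold change was 1.76 ± 0.37 (adjusted p = 0.158; DESeq2 adjusted p = 0.00137). Perp (chromosome 10, 18845071 to 18857073) was at 4.94 to 39.6 CPM untreated, 12.0 to 45.9 CPM 2 weeks after DMBA and 3.04 to 121 CPM at the endpoint, so its conditions overlapped, and its 2-week log2 fold change was 0.35 ± 0.73 (adjusted p = 0.968).

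The 2-week libraries were not alike. Cip2a-/- 2-week library 1 was the highest of the 6 in 8 of the 10 genes, while WT 2-week library 1 was the lowest in 5 and Cip2a-/- 2-week library 3 in 4. That highest library also had the most skeletal muscle markers, 58547 CPM summed over 7 genes. The untreated WT library 1 and WT endpoint library 1, with 30653 and 37231 CPM of the same markers, had 2.13 and 6.15 CPM of Eda2r and 15.9 and 39.0 CPM of Trp53inp1, and the WT endpoint values lay above every untreated library. Over the 18 libraries the correlation with the muscle score was r = 0.46 for Eda2r, 0.40 for Aen and 0.29 for Trp53inp1, as a description. The part of muscle in these values was not tested. Without Cip2a-/- 2-week library 1 the averaged 2-week log2 fold changes were 1.08 for Bax, 0.78 for Tnfrsf10b, 2.51 for Eda2r, 0.88 for Aen and 1.39 for Trp53inp1. In bulk tissue, more cells of a type and more RNA per cell cannot be told apart.

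**Figure D2:**
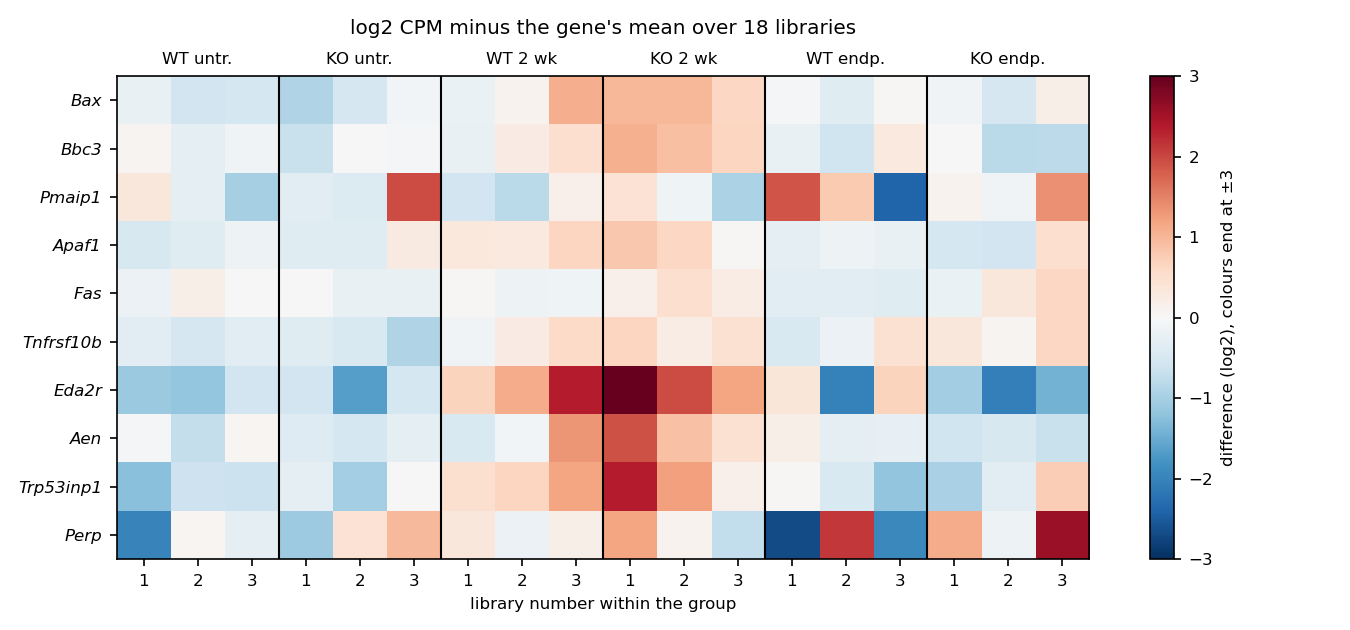
Log2 CPM of each of the 10 genes minus that gene's mean over 18 libraries, with libraries in columns by group (KO is Cip2a-/-) and colours ending at 3 in either direction. The 2-week columns are mostly red for Bax, Apaf1, Tnfrsf10b, Eda2r and Trp53inp1. Cip2a-/- 2-week library 1 is the highest of them except for Bax, where WT 2-week library 3 is. The Pmaip1 and Perp rows hold both colours within groups.

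Between 2 weeks and the endpoint, 5 of the 10 genes fell at an adjusted p under 0.05: Eda2r, Trp53inp1, Aen, Bbc3 and Bax. In this comparison 6.94% of all genes were called lower, 13.4% in either direction. Eda2r fell by 2.90 ± 0.54 on the log2 scale (SE; adjusted p = 0.00805), from a mean of 23.3 to 3.31 ± 2.83 CPM. The log2 fold change was -1.40 ± 0.37 for Trp53inp1 (adjusted p = 0.0261), -1.19 ± 0.30 for Aen (adjusted p = 0.0210), -0.85 ± 0.20 for Bbc3 (adjusted p = 0.0167) and -0.78 ± 0.21 for Bax (adjusted p = 0.0283). In 0 of the 10 genes were all endpoint libraries below all 2-week libraries, as in 3.49% of all genes. Apaf1 missed the threshold with -0.64 ± 0.20 (adjusted p = 0.0505). For the remaining genes the log2 fold change was -0.18 ± 0.17 in Tnfrsf10b (adjusted p = 0.491), -0.12 ± 0.13 in Fas (adjusted p = 0.539), 1.03 ± 0.62 in Pmaip1 (adjusted p = 0.279) and 0.87 ± 0.73 in Perp (adjusted p = 0.441). The Perp value was -0.60 without WT endpoint library 2, which had 88.2 CPM.

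Of 20 alternative fits of the endpoint comparison, Eda2r was called in 19, Bbc3 in 18, Aen in 17, Trp53inp1 in 15 and Bax in 13. A fit to the 4 groups of 2-week and endpoint glands alone called 1 of the 10, Eda2r, and leaving out Cip2a-/- 2-week library 1 or WT 2-week library 3 left 2 and 3 calls. Calls over all genes moved too. They were 2067 in the main fit, 1182 without Cip2a-/- 2-week library 1, and 978 to 2610 over all single libraries left out. Without the 3 libraries left out together above for their B cell markers, 4 of the 10 were called, and Bax was not (adjusted p = 0.0559). WT untreated library 1 and WT endpoint library 3, with 440 and 385 CPM of B cell markers, stayed in that fit. Without all 5 libraries none of the 10 was called, 67 of all genes were, and Eda2r was at -2.20 (adjusted p = 0.107). Other tissue markers moved in the same comparison. All 5 fibroblast markers were lower at the endpoint, 4 of them called, with a summed level of 1961 to 5163 CPM 2 weeks after DMBA and 413 to 2759 CPM at the endpoint. All 4 neutrophil markers were higher, 2 of them called, with sums of 9.73 to 21.2 CPM 2 weeks after DMBA and 8.01 to 263 CPM at the endpoint. All 7 skeletal muscle markers were lower (median log2 fold change -2.37, 0 called), and all 6 B cell markers were higher (2.52, 0 called). All 4 brown fat markers (2.03) and all 4 lymph node stroma markers tested (2.58) were higher, with 1 called in each. All 6 T cell (0.67), all 7 basal epithelial (0.44) and all 5 endothelial markers (0.47) were higher with 0 called. The slope of log2 CPM on exon length, per doubling of length, was 0.01 to 0.14 in 2-week libraries and -0.16 to -0.02 in endpoint libraries, and was -0.09 to 0.11 in untreated ones. The part of these differences in the 5 calls was not tested.

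Against untreated glands, the endpoint glands had 8 of 10 positive log2 fold changes with a median of 0.26, while 52.2% of all genes were positive, and edgeR called 0 of the 10 (0.252% of all genes). At an unadjusted p under 0.05, 1 of the 10 was higher, against 9.51% of all genes. That gene was Tnfrsf10b, with a log2 fold change of 0.65 ± 0.17 (adjusted p = 0.106), which DESeq2 called (adjusted p = 0.0175, and 5.14% of all genes) and edgeR called without WT endpoint library 1. Its endpoint libraries ran from 17.4 to 36.5 CPM and its untreated ones from 12.8 to 19.0 CPM, so the ranges overlapped through WT endpoint library 1. This comparison and the 2-week one share their untreated libraries.

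**Figure D3:**
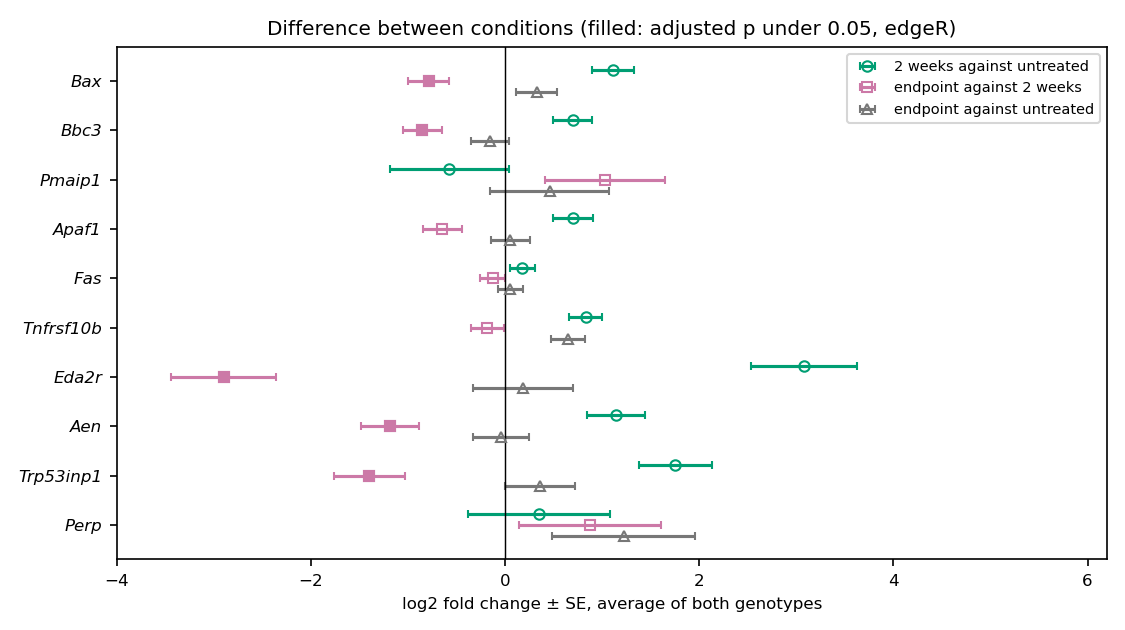
Log2 fold change with its SE for each of the 10 genes, averaged over both genotypes, in 3 comparisons; filled squares passed an adjusted p of 0.05. Eda2r lies at 3.08 at 2 weeks and at -2.90 from 2 weeks to the endpoint, and Tnfrsf10b is the gene whose endpoint difference from 2 weeks, -0.18, is small while its 2-week difference is 0.83.

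Within each genotype, the 2-week difference was larger in Cip2a-/- than in WT glands for 7 of the 10 genes, as for 49.1% of all genes. The medians of the 10 log2 fold changes were 1.05 in Cip2a-/- and 0.66 in WT glands. In WT glands the values were 2.53 ± 0.75 for Eda2r, 1.62 ± 0.53 for Trp53inp1, 0.88 ± 0.30 for Bax, 0.76 ± 0.29 for Apaf1, 0.66 ± 0.24 for Tnfrsf10b and 0.30 for Bbc3. In Cip2a-/- glands they were 3.63 ± 0.79, 1.89 ± 0.53, 1.35 ± 0.30, 0.64 ± 0.29, 1.01 ± 0.24 and 1.10 ± 0.28 in the same order. Without Cip2a-/- 2-week library 1 the Cip2a-/- values were 2.51, 1.19, 1.31, 0.49, 0.93 and 1.02 in that order. Those of Eda2r and Trp53inp1 were then not above the WT values given. None of the 10 was called by edgeR in either genotype, where 0% and 0.0129% of all genes were. At an unadjusted p under 0.05, 5 genes were higher in WT and 8 in Cip2a-/- glands, against 2.91% and 2.07% of all genes. DESeq2 called 0 in WT (0.083% of all genes) and 2, Bax and Eda2r, in Cip2a-/- glands (0.218%). The groups did not overlap, higher at 2 weeks, for 5 genes in WT (14.2% of all genes) and 7 in Cip2a-/- glands (6.93%).

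The difference between genotypes was tested directly. In 2-week glands all 10 genes had a higher fitted level in Cip2a-/- than in WT, the median of their log2 fold changes was 0.40, and 55.8% of all genes were positive. edgeR called 0 of the 10 (0.00646% of all genes were called), 1 of the 10 had an unadjusted p under 0.05 (2.44% of all genes), and DESeq2 called 0 (0.0154%). Bbc3, at 0.68 ± 0.28, and Fas, at 0.37 ± 0.18, had Cip2a-/- libraries that all exceeded the WT ones, as 6.76% of all genes did (adjusted p = 1.00 for both). Aen was at 0.74 ± 0.41 and Eda2r at 1.19 ± 0.71, and the Eda2r value was 0.07 without Cip2a-/- 2-week library 1. Without the 5 libraries, which leaves 1 Cip2a-/- 2-week library, the genotype difference was -0.38 for Eda2r and -0.029 for Aen. Markers differed between the same groups, again with 0 called. In Cip2a-/- glands all 7 skeletal muscle markers (median log2 fold change 2.89), all 6 B cell markers (4.54), all 6 T cell markers (1.76) and all 4 neutrophil markers (1.54) had higher fitted levels. All 8 luminal and general epithelial markers (-0.75), all 4 brown fat (-1.06) and all 5 endothelial markers (-0.20) had lower ones. The part of all these markers in the genotype values was not tested. The interaction of genotype and DMBA was 0.80 ± 0.40 for Bbc3 and 0.52 ± 0.26 for Fas (adjusted p = 0.999), and edgeR called 0 of the 10 genes (0% of all genes), with 0 at an unadjusted p under 0.05 (2.9%) and 0 called by DESeq2 (0.0358%). In untreated glands edgeR and DESeq2 called 0 of the 10 between genotypes (0% and 0.0307% of all genes), and 0 had an unadjusted p under 0.05 (2.27%).

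**Figure D4:**
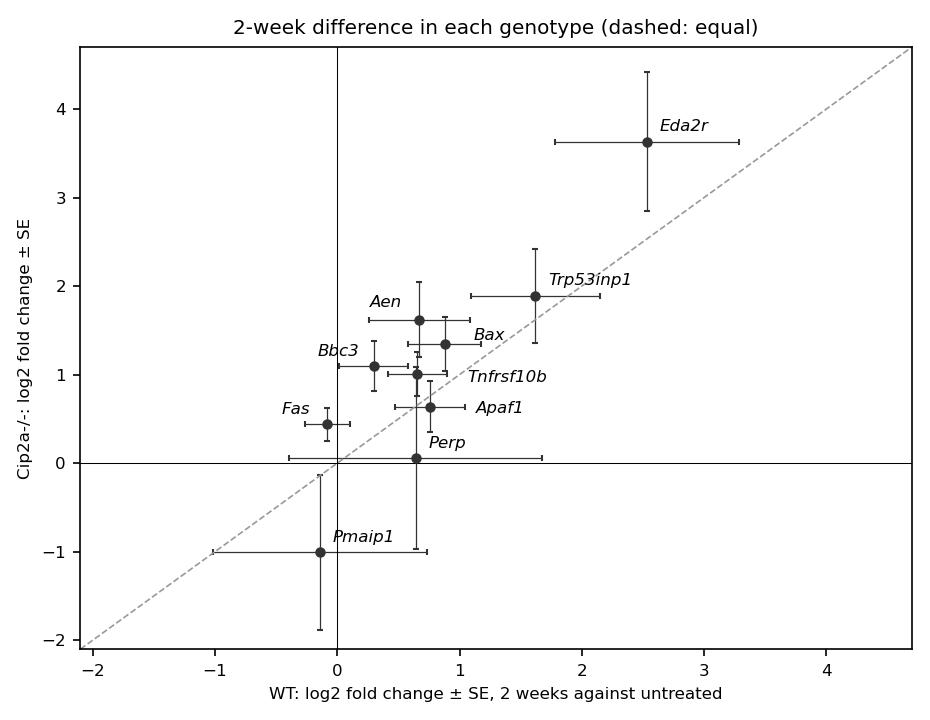
Log2 fold change from untreated to 2 weeks in WT (horizontal) and Cip2a-/- glands (vertical) for the 10 genes, with the SE of each; the dashed line marks equal values. Bbc3 lies at 0.30 in WT and 1.10 in Cip2a-/-, and 7 of the 10 points lie above the line. Without Cip2a-/- 2-week library 1 the Cip2a-/- values of Eda2r and Trp53inp1 were 2.51 and 1.19.

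At the endpoint, Fas was the gene with the clearest genotype difference. It was at 22.6 to 23.6 CPM in WT and at 25.4 to 45.2 CPM in Cip2a-/- glands, without overlap (2.26% of all genes were higher in this way). The log2 fold change was 0.63 ± 0.18 (adjusted p = 0.458; DESeq2 adjusted p = 0.0885), so it did not pass. Aen was lower in all 3 Cip2a-/- libraries, at 24.7 to 27.99 CPM against 32.4 to 44.4 CPM (3.02% of all genes were lower in this way), and the Eda2r log2 fold change was -1.54 ± 0.74 (adjusted p = 0.466). Of the 10, edgeR and DESeq2 called 0 (0.00646% and 0.515% of all genes), and 1 had an unadjusted p under 0.05 (10.7%). Eda2r and Aen had positive genotype differences at 2 weeks and negative ones at the endpoint, and the change between these times was not tested. Markers differed between the endpoint groups as well, with 0 called. In Cip2a-/- glands all 7 skeletal muscle markers had lower fitted levels (median log2 fold change -6.75). All 6 B cell (-5.27), all 6 T cell (-3.95), all 4 brown fat (-3.39) and all 4 lymph node stroma markers tested (-1.01) were also lower. All 8 luminal and general epithelial markers (1.03), all 5 fibroblast (0.72), all 4 neutrophil (1.14) and all 5 endothelial markers (0.44) were higher. The part of these markers in the genotype values was not tested.

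Other genes of the p53 and death pathways, from 4 lists, were read in the same fit. Of 23 p53 targets of cell cycle arrest and feedback, 22 were higher at 2 weeks, against 49.9% of all genes. Their median log2 difference was 0.75, beside 0.76 for the apoptosis targets. Of the 23, 1 was called (0.0258% of all genes), the stress cytokine gene Gdf15 at 4.99 ± 0.53 (adjusted p = 0.00237). The p21 gene Cdkn1a was at 3.34 ± 0.57 and Zmat3, which encodes an RNA-binding protein, at 1.48 ± 0.25 (adjusted p = 0.0632 for both). From 2 weeks to the endpoint 19 of the 23 had negative log2 fold changes, against 46.4% of all genes, with a list median of -0.98. Of the 23, 8 were called lower, against 6.94% of all genes: Gdf15, Zmat3, Mdm2, Ccng1, Polk, Gtse1, Ei24 and Mdm4. Gdf15 fell by 3.57 ± 0.49 on the log2 scale, and Zmat3 fell by 1.51 ± 0.25. Without the 5 libraries named above the Gdf15 and Zmat3 calls were lost, with Gdf15 at 5.16 (adjusted p = 0.256) at 2 weeks and at -3.13 (adjusted p = 0.0509) from 2 weeks to the endpoint.

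The machinery on which the apoptosis targets act had medians near those of all genes at 2 weeks. Of 23 genes of the mitochondrial pathway, among them Bak1, Bid, Bcl2l11, Mcl1 and Casp9, 10 were higher and 13 lower at 2 weeks, with a median of -0.02. Of all genes 49.9% were higher. edgeR called 0 of the 23 (0.0258% of all genes), and 0 had an unadjusted p under 0.05 (6.57% of all genes). Bcl2a1b was at -1.54 ± 0.75 (adjusted p = 0.749) and Casp9 at 0.18 ± 0.10 (adjusted p = 0.753). Of 18 death receptor ligands and signalling genes, 7 were higher, with a median of -0.12. edgeR called 0 of the 18, and 2 had an unadjusted p under 0.05, against the same 6.57% of all genes. The TRAIL gene Tnfsf10, the ligand of the Tnfrsf10b receptor, was at -0.43 ± 0.15 (adjusted p = 0.718), opposite in sign to its receptor, and Birc3 was at -0.67 ± 0.30 and Traf1 at -1.17 ± 0.65. At the endpoint 6 of the 18 had negative log2 fold changes against 2 weeks (46.4% of all genes). Of the 18, 1 was called lower, as 6.94% of all genes were. That gene was Cflar, which encodes the caspase-8 inhibitor c-FLIP, at -0.42 ± 0.11 (adjusted p = 0.0232). It was called in 14 of 20 alternative fits, and not with only the groups compared.

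Trp53 itself, the gene of p53, was at 79.0 ± 21.8 CPM untreated, 62.3 ± 11.3 CPM 2 weeks after DMBA and 86.2 ± 18.4 CPM at the endpoint (SD, n = 6 each). Its 2-week log2 fold change was -0.34 ± 0.18 (adjusted p = 0.753), with a fitted level below that of untreated glands. Of 16 genes of the p53 family and its regulators, 11 were higher at 2 weeks (49.9% of all genes) with a median of 0.05. edgeR called 0 of the 16, and 1 had an unadjusted p under 0.05, as 6.57% of all genes did. Trp53bp1 was at 0.31 ± 0.13 (adjusted p = 0.734). Prkdc, the catalytic subunit of DNA-dependent protein kinase, was the 1 gene of the 16 called at the endpoint against 2 weeks, at -0.50 ± 0.14 (adjusted p = 0.0296), where 13.4% of all genes were called. It was called in 11 of 20 alternative fits.

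The 3 genes with the smallest 2-week p-values were Bax, Eda2r and Tnfrsf10b. As a description, each was compared with every other gene of a set of 14011 across the 18 libraries, by the Pearson correlation of log2 CPM. The libraries share their groups, so each value is also given with group means removed. Bax was most like Gdf15 (r = 0.91, and 0.84 with group means removed), Pvt1 (0.89 and 0.87) and Cox6b2 (0.89 and 0.70). Eda2r was most like Npepps (0.91 and 0.77), Exoc4 (0.91 and 0.85) and Ei24 (0.88 and 0.72). Tnfrsf10b was most like Cdkn1a (0.80 and 0.47), Epha2 (0.78 and 0.57) and Fosl2 (0.78 and 0.68). Gdf15, Cdkn1a and Ei24 are themselves on the list of p53 arrest and feedback targets. Among the 10 apoptosis targets the 45 pairs had r from -0.30 (Pmaip1 and Tnfrsf10b) to 0.90 (Trp53inp1 and Apaf1), median 0.41, and from -0.69 (Bbc3 and Fas) to 0.78 (Trp53inp1 and Apaf1), median 0.36, with group means removed.

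Perp and Pmaip1 varied with markers of other cell types. Perp followed the basal epithelial markers (Krt5, Krt14, Krt17, Trp63, Acta2, Myh11 and Oxtr), with Pearson r = 0.91 and Spearman rho = 0.89 between its log2 CPM and their mean centred score over 18 libraries (permutation test, p = 1e-05, the smallest that 100000 permutations can give, and p = 2e-05). Without the 2 libraries farthest from the median score, WT endpoint libraries 1 and 3, r was 0.88, and with group means removed it was 0.91. Its r with luminal and general epithelial markers was 0.80 (rho = 0.78; permutation p = 1e-05 and 0.00019). Perp was lowest, at 3.04 CPM, in WT endpoint library 1, the library with the fewest epithelial markers. Pmaip1 had r = 0.76 and rho = 0.68 with 4 neutrophil markers (permutation p = 0.00022 and 0.00235), and r = 0.79 without the 2 farthest libraries. Of 26 relations tested, 13 marker lists for each of these 2 genes, these 3 had Benjamini-Hochberg adjusted p-values of 0.00013, 0.00013 and 0.00191 for r. The adjustment covers these 26 relations only. Correlations with the lists were computed for all 10 genes, and the largest were those of Perp and Pmaip1. The adjusted p-values do not account for that, and the permutations moved libraries across groups. With group means removed, r was 0.785 for Perp with luminal and general epithelial markers and 0.792 for Pmaip1 with neutrophil markers. The adjusted p of r was also under 0.05 for Perp with B cell markers (r = -0.60, rho = -0.55; permutation test, adjusted p = 0.0459 and 0.106) and for Pmaip1 with white fat markers (r = -0.61, rho = -0.57; adjusted p = 0.0459 and 0.0935). Without the 2 farthest libraries these r were -0.63 and -0.29, so the second rests on them. The part of cell makeup in the Perp and Pmaip1 values was not tested further. The other members were not tested against the marker lists. As a description, their r largest in size was -0.61, for Tnfrsf10b with T cell markers. With endothelial markers r was -0.60 for Bbc3 and -0.58 for Aen.

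**Figure D5:**
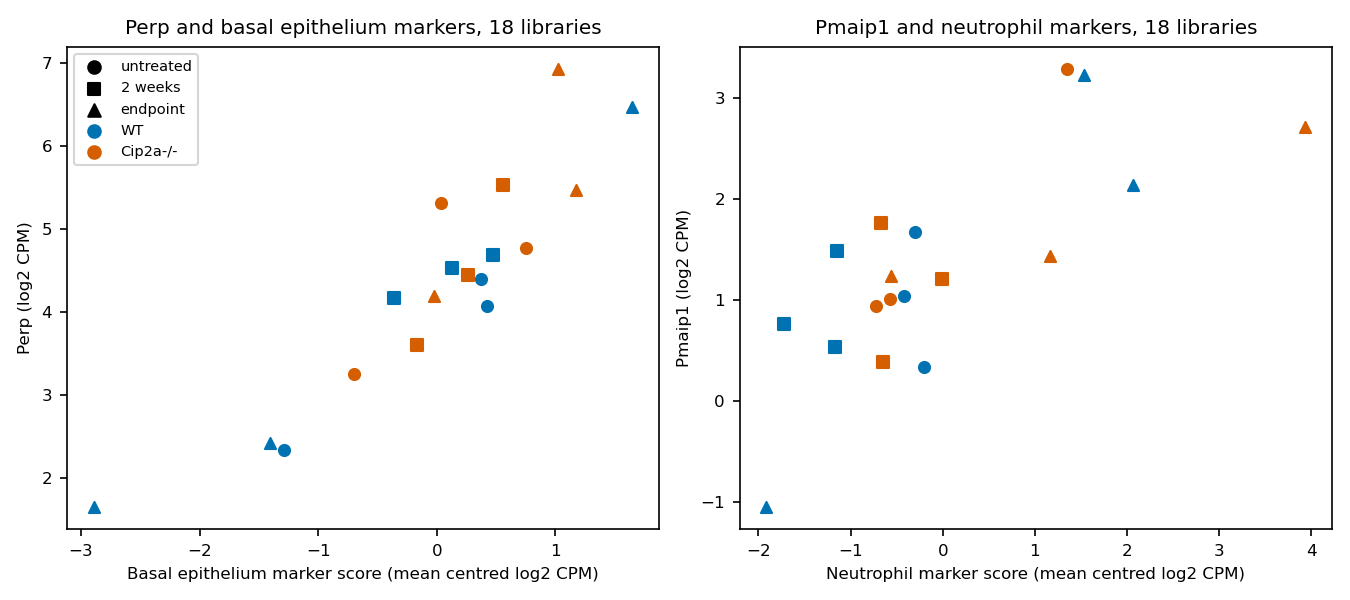
Left, Perp (log2 CPM) against the mean centred log2 CPM of basal epithelial markers; right, Pmaip1 against that of neutrophil markers; 1 point per library, WT blue and Cip2a-/- orange, with shape for the condition. Perp is higher where the basal score is higher (r = 0.91), and 4 endpoint or untreated libraries hold the highest Pmaip1 values.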

How the data were processed

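Polyadenylated RNA of 18 mammary gland libraries (6 groups of 3) was isolated with a NucleoSpin RNA kit and made into stranded TruSeq mRNA libraries, per the labels' protocols. bcl2fastq 2.17, STAR 2.5.2b, Subread 1.5.1 and the build mm10 are named in the submitters' processing notes. No source used here names the annotation, whether counting used strand, or how multi-mapping reads were handled. The deposited table holds raw counts per gene symbol, 1 column per library, per the file headers, and every value was a whole number.

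From these counts, edgeR 4.0.16 in R 4.3.3 kept genes by filterByExpr (minimum count 10, minimum total 15), scaled by TMM and fitted quasi-likelihood models to all 18 libraries, each group having its own term. P-values were adjusted over the 15482 genes tested (Benjamini-Hochberg), and calls were made at adjusted p under 0.05. The SE is the log2 fold change divided by the square root of F. Log2 CPM has a prior count of 2, and exon lengths come from GENCODE M21. Alternatives were DESeq2 1.42.0, limma-voom 3.58.1, RLE size factors, no low-count filter, a replicate block, only the groups compared, each library left out, and 3 or 5 libraries left out together. Scripts were tested on simulated data.

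All 10 genes are named, with the 3 genes of smallest unadjusted p at 2 weeks from each of 4 pathway lists, Trp53, and the 3 genes most like each of the 3 members of smallest p. Genes called at the endpoint are also named. A gene that this rule names is not reported here. The genes and lists were chosen with earlier results of these data known. Markers Flg and Trac were not matched.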

Additional observations from a re-analysis of the deposited data

How the results depend on the processing

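Leaving out 3 libraries together (WT endpoint 1, Cip2a-/- untreated 3 and Cip2a-/- 2 weeks 2, each the highest of its group in B cell markers), or 5 (also WT untreated 1 and Cip2a-/- 2 weeks 1, the highest of their groups in skeletal muscle markers), was chosen after seeing the data, and the 5 leave 1 Cip2a-/- 2-week library, which is assumed to vary like the other groups. For 2 weeks against untreated, the 4 genes called became 88 with DESeq2 and 2 with limma-voom, and members called went from 0 to 5 with DESeq2. In WT, 0 genes became 14 with DESeq2 and 1 without the 3 libraries. In Cip2a-/-, 2 genes became 36 with DESeq2, 1 with limma-voom, 0 with only the groups compared and 0 without the 3 libraries, and members went from 0 to 2 with DESeq2. For the endpoint against untreated, 39 genes became 828 with DESeq2, 23 with limma-voom, 60 with the replicate block, 4 with only the groups compared and 7 without the 3 libraries, and members went from 0 to 1 with DESeq2. For the endpoint against 2 weeks, 2067 genes became 3250 with DESeq2 and 605 with only the groups compared, and the 5 members called became 1 with only the groups compared. Between genotypes, DESeq2 called 6 genes in untreated glands (0 in edgeR), 3 at 2 weeks and 83 at the endpoint (1 each in edgeR, 0 with only the groups compared and 0 without the 3 libraries), and 7 for the interaction (0 in edgeR). The 3 members without overlap at 2 weeks became 5 without the 3 libraries, and the Pmaip1 2-week value turned from -0.57 to 0.059. Without the 5 libraries, genes called were 0 at 2 weeks, 0 in WT and 0 in Cip2a-/-, 7 at the endpoint against untreated, 67 at the endpoint against 2 weeks (members 0) and 0 between genotypes at 2 weeks and at the endpoint. The members without overlap at 2 weeks were then 5, and 3 signs turned: Perp at 2 weeks (-0.19), and Aen (-0.029) and Eda2r (-0.38) between genotypes at 2 weeks. The cause of these changes was not tested.

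Leaving out single libraries gave 1 to 12 genes called at 2 weeks (members 0 to 1), 0 to 1 in Cip2a-/-, 2 to 279 at the endpoint against untreated (members 0 to 1), 978 to 2610 at the endpoint against 2 weeks (members 2 to 6), 0 to 1 between genotypes at 2 weeks, 0 to 6 at the endpoint and 0 to 1 for the interaction. Members without overlap ran from 3 to 5 at 2 weeks and, lower at the endpoint than at 2 weeks, from 0 to 2. The Pmaip1 2-week value reversed in sign, at 0.057 without Cip2a-/- untreated library 3, and was -0.77 without Cip2a-/- 2-week library 1. The Perp endpoint value against 2 weeks (-0.60 to 1.19) and the Aen 2-week value in WT (-0.060 to 0.98) also reversed.

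In the 45 pairs of libraries with the same number in different groups, deviations correlated with r from -0.47 to 0.66, median 0.00, and 17 over 0.1. In the 90 pairs with different numbers r was -0.72 to 0.66, median -0.02, with 29 over 0.1. These values show no clear pairing by number, which was not tested. With the replicate block, 6 members were called at the endpoint against 2 weeks and 0 at 2 weeks. Depth limits Eda2r and Pmaip1 most, at 1 to 3 CPM in most untreated libraries.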
